A study of Arabidopsis thaliana with 24 samples.

Results

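Class III peroxidases are secreted heme enzymes of plants, and 37 genes of the family, each named by its Arabidopsis thaliana locus ID, were followed here among the 33602 genes of the deposited count table. They were chosen by locus ID, with no measured value in that rule but with earlier results of these data known. The other 36 genes of the family served for comparison. The RNA came from whole dark-grown seedlings of the Columbia background, 3 days old, as polyA RNA. The groups were pif4 seedlings (allele pif4-101, a mutant of the transcription factor PIF4) given 3 h at 37 °C, pif4 seedlings kept at 22 °C, WT seedlings given 3 h at 37 °C and WT seedlings kept at 22 °C, with 3 libraries each, lettered a, b and c. Light was given to all groups for germination alone. Libraries of PIF4-L lines, which carry PIF4 with a Flag tag under its own promoter, were not analysed here. The labels do not say whether the libraries of a group came from separate sowings, and each p-value therefore refers to the spread among these libraries alone.

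Class III peroxidases sit in the cell wall and apoplast, where they use hydrogen peroxide to couple lignin monomers and to cross-link structural proteins such as extensins, which stiffens the wall. Run the other way, with a reductant, they produce reactive oxygen that loosens the wall or serves in defence. In seedlings much of the family is known from roots, where some members lignify the Casparian strip of the endodermis and others act in the growth of root hairs. PIF4 is a basic helix-loop-helix factor that promotes elongation of the hypocotyl in darkness and warmth.

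The 4 groups ranged from 5940624 to 10662414 reads per library for pif4 at 37 °C, 3176106 to 11099980 for pif4 at 22 °C, 3360759 to 8263355 for WT at 37 °C and 3234886 to 14791597 for WT at 22 °C. Levels are CPM, read counts scaled to a common library total with TMM factors, and where genes are compared with one another, CPM per kb of coding length. Transcripts counted for PIF4 itself were not called different between the genotypes (edgeR adjusted p = 0.68 at 37 °C and 0.81 at 22 °C): PIF4 stood at 21.6, 22.0 and 22.6 CPM in pif4 and 22.1, 33.3 and 30.9 CPM in WT at 37 °C, and at 17.2, 24.0 and 11.2 CPM in pif4 and 7.81, 13.3 and 8.87 CPM in WT at 22 °C. A count over the whole gene does not show where its reads lie, so it is no check of the pif4 allele, and the genotypes rest on the labels. Scaling matters for the heat comparisons, because TMM gave the 37 °C libraries factors of 0.678 to 0.734, while those kept at 22 °C had 1.30 to 1.496. With total counts as library sizes in place of TMM, the median log2 fold change of all genes became -1.13 in both heat comparisons, against -0.10 in pif4 and -0.12 in WT with TMM. The share of called genes that were higher at 37 °C then was 13.1% in pif4, in place of 51.5%, and 13.3% in WT, in place of 49.6%.

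Of the 37 genes, 36 had values. The exception was AT1G05240 (PER1), whose protein is identical to that of its neighbour AT1G05250 (PER2) over 325 residues, and PER2 was listed with at most 2 reads in any library. Among the members, 3 more pairs of neighbouring or near-neighbouring genes were close copies. PER33 and PER34 shared 92.9% of aligned residues, PER50 and PER51 89.4%, and PER53 and PER54 84.5%. Close copies also lay outside the members: PER38 adjoins PER37 and shared 92.8% with it. The more distant PER32 shared 89.2% with PER34 and 88.4% with PER33. How the counting split reads between such copies was not given in the sources used here, which leaves their separate levels uncertain. The proteins ran from 317 to 366 residues, and the median identity between members was 41.4%. The filter on low counts kept 33 of the 36 for testing and left out PER2, AT1G68850 (PER11) and AT5G06730 (PER54). PER11 had 0 reads at 37 °C in both genotypes, and 3 reads in pif4 and 11 in WT at 22 °C over 3 libraries. PER54 had 9 reads in pif4 at 37 °C, 52 in pif4 at 22 °C, 1 in WT at 37 °C and 17 in WT at 22 °C.

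A single gene, AT2G37130 (PER21), known from wounding and defence responses, made up a large share of the peroxidase transcript in these seedlings. Per kb of coding length its level was 1055 ± 302 CPM per kb in pif4 and 947 ± 353 in WT at 37 °C, and 808 ± 60.3 in pif4 and 992 ± 163 in WT at 22 °C (mean ± SD, n = 3 each). These values were 44.4% of the summed levels per kb of all members in pif4 and 45.7% in WT at 37 °C, and 23.7% in pif4 and 31.0% in WT at 22 °C. AT4G21960 (PER42) came next in every group, followed by AT5G64100 (PER69). PER42 stood at 306 ± 49.7 CPM per kb in pif4 and 277 ± 90.9 in WT at 37 °C, and at 485 ± 23.5 in pif4 and 482 ± 53.0 in WT at 22 °C. PER21 was above PER42 in all libraries of each group, and PER42 above PER69. Below these, the order differed with temperature: AT1G71695 (PER12) and AT1G05260 (PER3) came next at 37 °C in both genotypes, and PER12 was above PER3 in all libraries there. At 22 °C the next places fell to PER71, PER34, PER62, PER45 and PER72 in pif4 and to PER45, PER71, PER72 and PER34 in WT, and each of these overlapped the gene next below it. The highest 5 members held 74.7% of the summed level per kb in pif4 at 37 °C, 62.9% in pif4 at 22 °C, 77.6% in WT at 37 °C and 66.3% in WT at 22 °C. At the low end, 6 members in pif4 and 9 in WT were under 1 CPM per kb at 37 °C, and 2 in pif4 and 6 in WT at 22 °C.

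After 3 h at 37 °C the peroxidases were lower than at 22 °C in many cases and higher in 1. In pif4, 19 of the 33 tested members were called lower at 37 °C (edgeR quasi-likelihood F test, Benjamini-Hochberg adjusted p under 0.05 over 18774 genes), against 24.1% of all genes tested, and 1 was called higher, against 25.6%. In WT, 18 were called lower, against 26.0% of all genes, and 1 higher, against 25.5%. The median log2 fold change of the members was -1.08 in pif4 and -1.16 in WT, beside -0.10 and -0.12 for all genes. With total counts as library sizes the members' median was -2.13 in pif4 and -2.18 in WT, which is -0.997 and -1.05 relative to the shifted median of all genes. The calls were lower in both genotypes for 16 members, higher in both for 1 and absent in both for 11, and the rest were called in 1 genotype alone. Such joint calls were not counted over all genes. The share of all genes lower in both genotypes cannot exceed the 24.1% lower in pif4. Summed over members, the level was 2367 ± 477 CPM in pif4 and 2064 ± 494 CPM in WT at 37 °C, and 3395 ± 214 CPM in pif4 and 3181 ± 271 CPM in WT at 22 °C. As a share of all reads, which amounts to total-count scaling and so carries the shift of the typical gene, the members took 0.136% to 0.200% in pif4 and 0.109% to 0.172% in WT at 37 °C, and 0.421% to 0.541% in pif4 and 0.386% to 0.498% in WT at 22 °C.

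**Figure D1:**
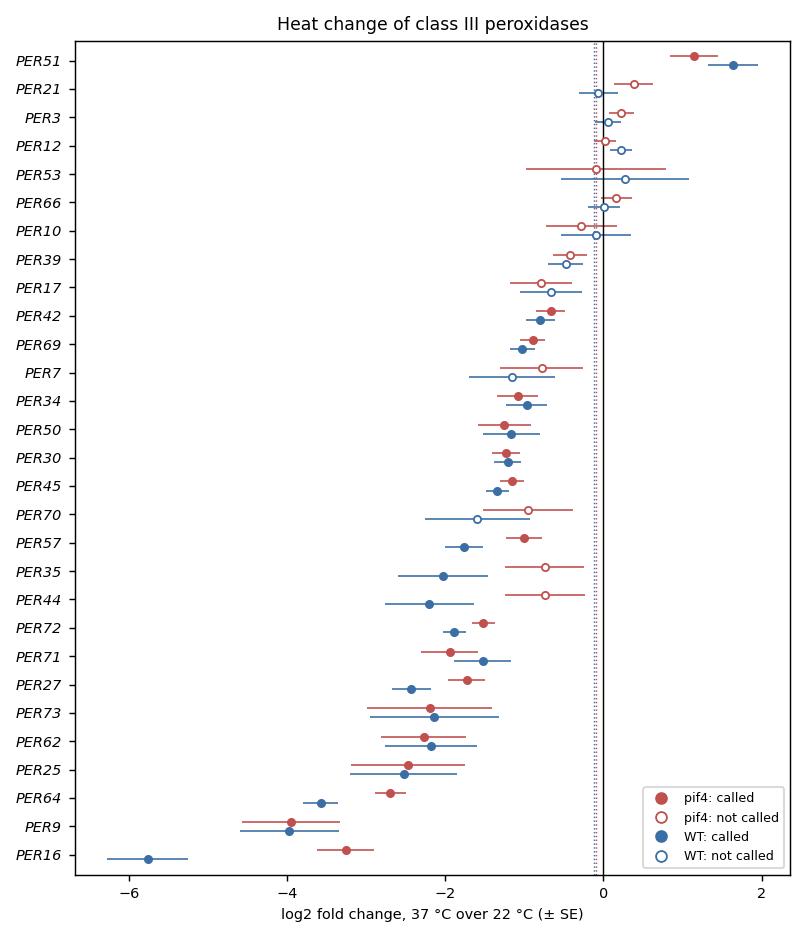
Log2 fold change at 37 °C over 22 °C (x axis, points with ± SE from the edgeR fit) of 29 tested members in pif4 and in WT; filled points were called at an adjusted p under 0.05 and dotted lines mark the median of all genes. PER33, PER37, PER49 and PER52, with few reads in 1 or more groups, are not drawn. PER16, PER9 and PER64 lie farthest left in both genotypes, and PER51 is the one member called higher.

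Among the 5 members that lignify the Casparian strip, the lignin barrier of the root endodermis, 3 were lower at 37 °C in both genotypes and 2 were not called. Of all 33 tested members, 16 were lower in both genotypes. Of all genes tested, 24.1% were lower in pif4 and 26.0% in WT. AT5G42180 (PER64), which is positioned at the strip by CASP proteins, had 8.87, 15.6 and 16.2 CPM in pif4 at 37 °C, against 86.3, 86.1 and 94.8 CPM in pif4 at 22 °C. In WT it had 5.95, 8.90 and 7.68 CPM at 37 °C, against 84.0, 93.5 and 99.4 CPM at 22 °C. No library at 37 °C reached the level of any at 22 °C, and the log2 fold change was -2.69 ± 0.20 in pif4 (edgeR adjusted p = 6.6e-10) and -3.58 ± 0.22 in WT (adjusted p = 2.8e-11). AT1G44970 (PER9) had 0.240, 2.40 and 1.01 CPM in pif4 at 37 °C, against 18.9, 18.9 and 25.3 CPM in pif4 at 22 °C. PER9 in WT had 0, 0.174 and 3.75 CPM at 37 °C, against 19.7, 28.9 and 24.1 CPM at 22 °C. The groups were again apart, with log2 fold changes of -3.94 ± 0.62 in pif4 (edgeR adjusted p = 6.1e-05) and -3.97 ± 0.63 in WT (adjusted p = 6.7e-05). The size in WT rested on few reads at 37 °C, 22 over the 3 libraries and 21 of them in library c, and it was -7.49 without that library and -3.33 without library b. In pif4 it was -4.92 without library b of the 37 °C group. AT5G66390 (PER72) was lower by a smaller factor, with 51.6, 44.7 and 47.0 CPM at 37 °C against 150, 123 and 137 CPM at 22 °C in pif4 (-1.52 ± 0.14, edgeR adjusted p = 3.1e-08), and -1.89 ± 0.15 in WT (adjusted p = 1.6e-09). PER3, first known as a cold-induced gene, and AT4G11290 (PER39) were not called: PER3 had a log2 fold change of 0.23 ± 0.16 in pif4 and 0.06 ± 0.16 in WT (edgeR adjusted p = 0.25 and 0.79), and PER39 had -0.42 ± 0.22 and -0.48 ± 0.22 (adjusted p = 0.11 and 0.074). PER39 sat near the threshold: DESeq2 called it lower in pif4 and in WT (adjusted p = 0.047 and 0.042), and edgeR called it in WT without library c of 22 °C (0.042) or c of 37 °C (0.022).

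Most marker genes of the endodermis were lower in the same libraries. Of 6 endodermis markers with values, 5 were called lower at 37 °C in each genotype. The share of all genes tested was 24.1% in pif4 and 26.0% in WT. The summed level of the 6 markers was 289 to 330 CPM in pif4 and 200 to 265 CPM in WT at 37 °C. At 22 °C it was 370 to 537 CPM in pif4 and 421 to 507 CPM in WT. CASP2, a scaffold of the strip, had a log2 fold change of -2.79 ± 0.21 in pif4 and -3.18 ± 0.22 in WT (edgeR adjusted p = 6.9e-10 and 2.4e-10). CASP5 was the marker not called, at 0.31 ± 0.16 in pif4 and -0.20 ± 0.16 in WT (edgeR adjusted p = 0.10 and 0.29). Each of the 6 markers had 48 reads or more in every group, and their part in the peroxidase values was not tested. In RNA from whole seedlings, fewer cells of a type and less RNA per cell cannot be told apart.

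**Figure D2:**
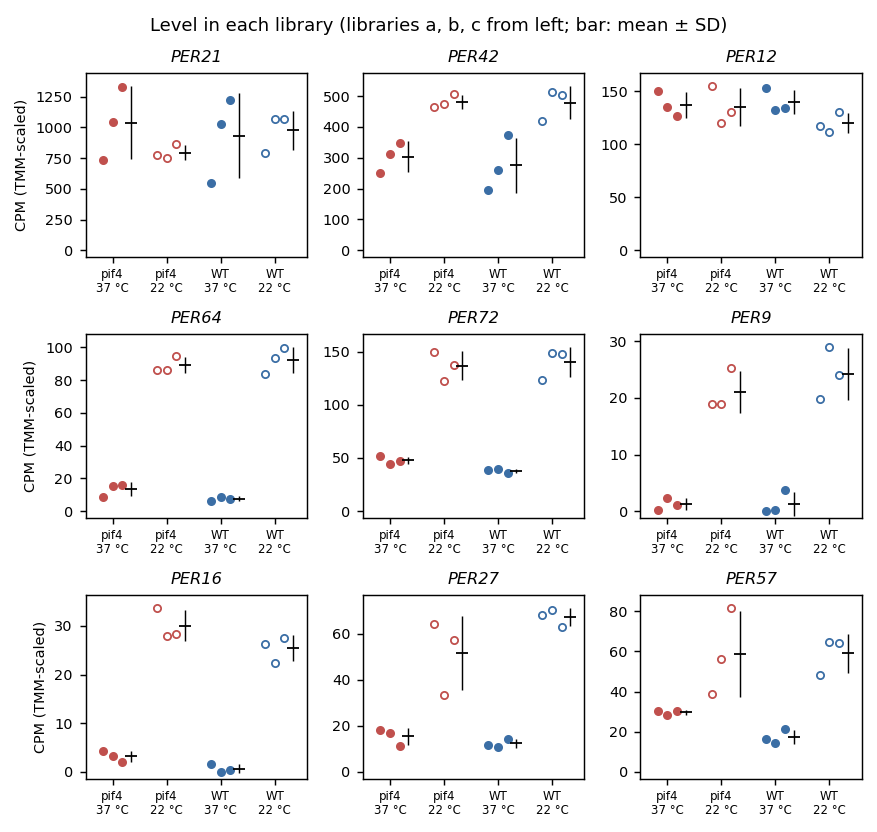
Level of 9 members in each of the 12 libraries (y axis, TMM-scaled CPM; points are libraries a, b and c from left to right, filled at 37 °C and open at 22 °C; bars are mean ± SD, n = 3). PER64, PER72, PER9, PER16, PER27 and PER57 are lower at 37 °C in all libraries of both genotypes, PER42 likewise. PER21 overlaps between temperatures in both genotypes and PER12 in pif4, while the 3 WT libraries of PER12 at 37 °C are above those at 22 °C.

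Of the 4 members listed here for lignin of stems and vessels, AT2G41480 (PER25) was lower at 37 °C in both genotypes. In pif4 it had 0.480, 0.668 and 0.169 CPM at 37 °C against 3.15, 2.31 and 2.29 CPM at 22 °C. Its log2 fold change was -2.47 ± 0.72 in pif4 (edgeR adjusted p = 0.0075) and -2.52 ± 0.68 in WT (adjusted p = 0.0041), or -3.16 in WT without library c of the 37 °C group. AT5G51890 (PER66), expressed in differentiating xylem vessels, and AT2G22420 (PER17), which acts in lignified tissue of the stem and fruit, were not called. PER66 had 40.5, 41.4 and 36.7 CPM at 37 °C against 40.5, 28.6 and 37.0 CPM at 22 °C in pif4, and the groups overlapped. PER17 had log2 fold changes of -0.79 ± 0.39 in pif4 and -0.66 ± 0.39 in WT (edgeR adjusted p = 0.10 and 0.17). AT5G05340 (PER52) had 1 read in pif4 at 37 °C and 67 at 22 °C over 3 libraries. The level of PER52 at 22 °C was thus 40.7 times that at 37 °C in pif4, with a 95% interval of 7.04 to 1630 that covers counting error only. In the edgeR test it was called in pif4 (adjusted p = 0.0057) and no longer without pif4 library b of the 22 °C group (adjusted p = 0.080), while in WT it had 2 reads at 37 °C and 5 at 22 °C.

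Peroxidases that act in root hairs gave lower but more scattered values. AT5G67400 (PER73) had 6.24, 2.80 and 0 CPM at 37 °C against 9.94, 8.89 and 19.7 CPM at 22 °C in pif4, and 6.38, 3.32 and 0.536 CPM against 11.3, 10.2 and 17.9 CPM in WT. The temperatures did not overlap in either genotype, yet the call was weak: the log2 fold change was -2.20 ± 0.79 in pif4 (edgeR adjusted p = 0.033) and -2.14 ± 0.82 in WT (adjusted p = 0.042). Leaving out 1 library gave -3.12 to -1.59 in pif4 and -2.76 to -1.55 in WT. The call was lost in pif4 without library c of 22 °C or b of 37 °C, and in WT without any 1 library except a of 37 °C, where it was kept at -2.76. It was lost too with DESeq2 (adjusted p = 0.081 in pif4 and 0.11 in WT) and with no filter on low counts (0.10 and 0.12). AT4G26010 (PER44) was called lower in WT, with 11.9, 4.36 and 2.14 CPM at 37 °C against 19.7, 21.6 and 31.8 CPM at 22 °C (-2.20 ± 0.57, edgeR adjusted p = 0.0049), and it was -2.91 without library a of 37 °C. PER44 was not called in pif4, with 16.8, 13.2 and 8.96 CPM at 37 °C and 7.27, 20.3 and 34.8 CPM at 22 °C (-0.74 ± 0.50, adjusted p = 0.24), where the groups overlapped. Leaving out 1 library gave -1.12 to -0.14 for PER44 in pif4, with edgeR adjusted p up to 0.84. Of these fits, only the one without library a of the 22 °C group called it (adjusted p = 0.036). The difference between the genotypes in this heat effect was 1.46 ± 0.76 and was not called (edgeR adjusted p = 0.92). AT3G49960 (PER35), 81.2% identical to PER73, had the same pattern of calls: -2.02 ± 0.57 in WT (edgeR adjusted p = 0.0060) and -0.74 ± 0.50 in pif4 (adjusted p = 0.23), or 0.038 without pif4 library a of 22 °C. Of 7 root hair markers tested, 3 were called lower in pif4 and 4 in WT, against 24.1% and 26.0% of all genes tested. The markers LRX1 and RBOHC were called lower in both genotypes. They are counted again below, LRX1 with the extensins and RBOHC with the NADPH oxidases. The summed level over all 9 markers was 7.60 to 21.5 CPM in pif4 and 13.0 to 16.2 CPM in WT at 37 °C. At 22 °C it was 29.8 to 61.7 CPM in pif4 and 36.0 to 45.9 CPM in WT. RSL1, a regulator of root hair initiation, had 0 reads at 37 °C in both genotypes, and the other 8 had 3 reads or more in every group. Their part in these values was not tested.

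In the set known from defence and the oxidative burst, 3 of 5 were lower at 37 °C in both genotypes, beside 16 of all 33 tested members. The share of all genes tested that were lower was 24.1% in pif4 and 26.0% in WT. AT5G64120 (PER71), which responds to wall damage, had 57.6, 42.3 and 131 CPM at 37 °C against 259, 394 and 234 CPM at 22 °C in pif4, with no overlap. Its log2 fold change was -1.94 ± 0.36 in pif4 (edgeR adjusted p = 0.00065), or -2.58 without library c of 37 °C, and -1.53 ± 0.36 in WT (adjusted p = 0.0036). AT5G39580 (PER62), which also acts in root hair growth in the cold, had 15.1, 15.6 and 64.0 CPM at 37 °C against 118, 239 and 102 CPM at 22 °C in pif4 (-2.27 ± 0.54, edgeR adjusted p = 0.0055). In WT it was -2.18 ± 0.58 (adjusted p = 0.010), a call lost without library b of 37 °C (adjusted p = 0.05002), and in pif4 it was -3.32 without library c of 37 °C. AT3G49120 (PER34), a source of the apoplastic oxidative burst, had log2 fold changes of -1.08 ± 0.26 in pif4 and -0.97 ± 0.26 in WT (edgeR adjusted p = 0.0022 and 0.0053). PER21 was not called: it had 737, 1046 and 1332 CPM at 37 °C and 772, 750 and 862 CPM at 22 °C in pif4 (0.39 ± 0.25, edgeR adjusted p = 0.21), and 546, 1030.0 and 1220.0 CPM at 37 °C and 790, 1071 and 1066 CPM at 22 °C in WT (-0.06 ± 0.25, adjusted p = 0.84). Its libraries at 37 °C were the more scattered and enclosed those at 22 °C. AT3G49110 (PER33), the other source of the oxidative burst, was not called in either genotype, but in pif4 it was without library c of 37 °C (-3.61, edgeR adjusted p = 0.028).

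The member with the largest fall in WT was AT2G18980 (PER16). It had 4.32, 3.204 and 2.03 CPM at 37 °C against 33.7, 28.0 and 28.3 CPM at 22 °C in pif4, and 1.70, 0 and 0.357 CPM against 26.4, 22.4 and 27.6 CPM in WT. Every library at 37 °C was below every library at 22 °C, and the log2 fold change was -3.26 ± 0.36 in pif4 (edgeR adjusted p = 3.0e-07) and -5.76 ± 0.51 in WT (adjusted p = 9.6e-09). With 6 reads in WT at 37 °C, that size ran from -7.07 without library a to -4.999 without library b. Its closest relative AT4G30170 (PER45), 81.1% identical, had smaller log2 fold changes, -1.15 ± 0.15 in pif4 and -1.34 ± 0.15 in WT (edgeR adjusted p = 2.1e-06 and 3.0e-07). AT3G01190 (PER27) had 18.2, 17.1 and 11.3 CPM at 37 °C against 64.0, 33.5 and 57.0 CPM at 22 °C in pif4 (-1.73 ± 0.24, edgeR adjusted p = 4.6e-06), and -2.43 ± 0.25 in WT (adjusted p = 7.2e-08). AT5G17820 (PER57), a target that the root growth regulator UPB1 represses, had -1.001 ± 0.23 in pif4 and -1.76 ± 0.24 in WT (edgeR adjusted p = 0.0011 and 4.6e-06). UPB1 itself was not called in either genotype (0.19 ± 0.27 in pif4 and -0.16 ± 0.28 in WT, edgeR adjusted p = 0.59 and 0.66). AT3G21770 (PER30) had a log2 fold change of -1.23 ± 0.17 in pif4 and -1.21 ± 0.17 in WT (edgeR adjusted p = 6.7e-06 and 7.9e-06). The abundant PER69, which acts with PER62 in root hair growth in the cold, had -0.89 ± 0.16 in pif4 and -1.02 ± 0.16 in WT (adjusted p = 8.4e-05 and 1.8e-05), and PER42 had -0.67 ± 0.18 in pif4 and -0.80 ± 0.18 in WT (adjusted p = 0.0054 and 0.0013). PER69 belongs to a run of 3 neighbouring genes with AT5G64110 (PER70) and PER71. PER70, the lowest of the run, was at -0.95 ± 0.57 in pif4 and -1.59 ± 0.66 in WT and was not called (edgeR adjusted p = 0.18 and 0.051), although its libraries at 37 °C were below those at 22 °C in both genotypes. In WT it was called with DESeq2 (adjusted p = 0.013), in 4 other alternatives and without library b of 37 °C (-3.06, adjusted p = 0.0075).

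AT4G36430 (PER49) and AT4G08770 (PER37) were called lower at 37 °C in pif4 and not in WT, as was PER52. PER49 had 0.240, 0.4005 and 0.169 CPM at 37 °C against 4.85, 14.5 and 2.96 CPM at 22 °C in pif4 (-4.66 ± 0.98, edgeR adjusted p = 0.00058), or -3.72 without library b of 22 °C. In WT it was at -0.54 ± 0.94, where library b alone held all 10 reads of the 37 °C group. Without that library PER49 was called lower in WT as well (-6.22, adjusted p = 0.023). PER37 had 0.480, 1.87 and 8.28 CPM at 37 °C against 12.8, 89.3 and 5.79 CPM at 22 °C in pif4, groups that overlapped. In WT it had 0, 0.698 and 0 CPM at 37 °C against 1.84, 1.16 and 2.10 CPM at 22 °C, without overlap (-2.48 ± 2.04, adjusted p = 0.34, or 0.049 with the 2 WT groups fitted alone). The PER37 call in pif4 (-3.30 ± 1.12, edgeR adjusted p = 0.033) was lost without library b of 22 °C (-1.34, adjusted p = 0.19) and without library a or b of 37 °C (0.084 and 0.11), as well as with no filter (0.057) and with the 2 pif4 groups fitted alone (0.14), and the size was -4.76 without library c of 37 °C. The genotypes were not shown to differ in the heat effect of these genes: the difference was -4.12 ± 1.41 for PER49, -0.82 ± 3.00 for PER37 and -5.45 ± 2.56 for PER52 (edgeR adjusted p = 0.80, 1 and 0.90), and for PER49 it was 1.57 without WT library b of 37 °C. The members called in neither genotype and not yet described were AT1G30870 (PER7), AT1G49570 (PER10), PER12 and AT5G06720 (PER53). PER12 had 151, 135 and 126 CPM at 37 °C against 155, 120 and 130 CPM at 22 °C in pif4, and the groups overlapped. In WT it had 153, 132 and 134 CPM at 37 °C against 117, 112 and 130 CPM at 22 °C, without overlap, and the log2 fold change was 0.02 ± 0.14 in pif4 and 0.22 ± 0.14 in WT (edgeR adjusted p = 0.90 and 0.20). PER10 had log2 fold changes of -0.28 ± 0.45 in pif4 and -0.09 ± 0.45 in WT, PER7 -0.78 ± 0.52 and -1.16 ± 0.54, and PER53 -0.09 ± 0.89 and 0.27 ± 0.81.

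The one member called higher at 37 °C, AT4G37530 (PER51), adjoins a close copy that was called lower, AT4G37520 (PER50). PER51 had 23.3, 28.3 and 27.9 CPM at 37 °C against 6.79, 19.1 and 9.53 CPM at 22 °C in pif4, and 19.98, 25.3 and 26.3 CPM against 7.81, 9.95 and 5.49 CPM in WT. All libraries at 37 °C were above all at 22 °C within each genotype. The log2 fold change of PER51 was 1.15 ± 0.31 in pif4 (edgeR adjusted p = 0.0045) and 1.64 ± 0.32 in WT (adjusted p = 0.00025), and with total counts as library sizes it was 0.09 and 0.62 and not called (adjusted p = 0.80 and 0.11). PER50 had 14.4, 20.8 and 30.8 CPM at 37 °C against 31.5, 88.9 and 37.0 CPM at 22 °C in pif4 (-1.25 ± 0.34, edgeR adjusted p = 0.0057), and 8.08, 13.8 and 12.3 CPM against 24.8, 30.6 and 23.5 CPM in WT (-1.16 ± 0.36, adjusted p = 0.013). The PER50 call was lost in pif4 without library b of 22 °C (-0.64, adjusted p = 0.077) and in WT without library a of 37 °C (0.052). The ratio of the reads of both genes within a library does not depend on scaling. PER51 had 1.62, 1.36 and 0.907 reads per PER50 read in pif4 at 37 °C, against 0.215, 0.215 and 0.258 in pif4 at 22 °C. In WT it had 2.47, 1.84 and 2.13 reads per PER50 read at 37 °C, against 0.315, 0.326 and 0.233 at 22 °C. The ratio was thus higher in each library at 37 °C than in any at 22 °C, and at 37 °C it was lower in the 3 pif4 libraries than in the 3 WT libraries. With coding sequences 92.4% identical, the split of reads between both genes remains uncertain.

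**Figure D3:**
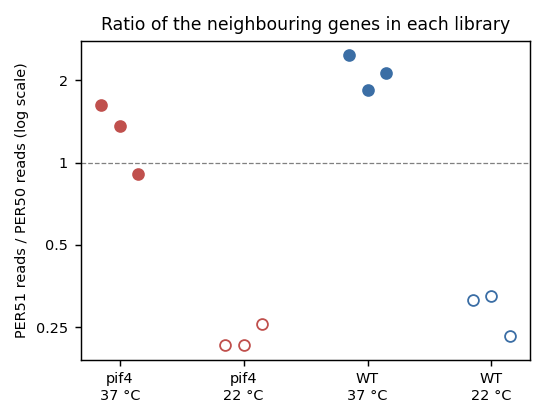
Reads of PER51 divided by reads of PER50 in each library (y axis, log scale; points are libraries a, b and c from left to right, filled at 37 °C and open at 22 °C; the dashed line marks equal reads). The libraries at 22 °C lie between 0.215 and 0.326, and those at 37 °C between 0.907 and 2.47.

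Between the genotypes at 22 °C, no member was called, while 16 genes of all tested were (0.0852%). Unadjusted p-values were under 0.05 for 8 of the 33, and for 687 of all 18774 genes. In 10 of the 33 members all 3 pif4 libraries were above all 3 WT libraries, against 5.65% of all genes tested, and in 2, PER30 and PER53, all were below, against 4.86%. The 10 were PER16, PER33, PER34, PER37, PER49, PER50, PER52, PER62, PER70 and PER71. PER33 had 5.09, 30.2 and 2.11 CPM in pif4, against 0.459, 0 and 0 CPM in WT. It had 304 reads over the 3 pif4 libraries and 2 over the WT libraries, a ratio of levels of 242 with a 95% interval of 66.5 to 2010 for counting error only, and an edgeR adjusted p of 0.26. PER37 had 12.8, 89.3 and 5.79 CPM in pif4, against 1.84, 1.16 and 2.10 CPM in WT (4.42 ± 1.16, edgeR adjusted p = 0.46). PER49 had 4.85, 14.5 and 2.96 CPM in pif4, against 0.689, 1.00 and 1.19 CPM in WT (2.87 ± 0.79, adjusted p = 0.30). PER52 had 0.969, 5.72 and 0.965 CPM in pif4, against 0.230, 0 and 0.183 CPM in WT (4.35 ± 1.17, adjusted p = 0.27). Library b was the highest pif4 library in each of these 4 genes and in PER62, PER71, PER34 and PER50 as well. PER62 had 118, 239 and 102 CPM in pif4, against 56.9, 51.8 and 59.3 CPM in WT (1.45 ± 0.51, adjusted p = 0.97), and PER71 had 259, 394 and 234 CPM, against 162, 140 and 155 CPM (0.96 ± 0.34, adjusted p = 0.93). PER62 and PER71 were thus higher in each pif4 library than in any WT library, with a spread among the pif4 libraries far wider than in WT. Of the 5 members of the defence set, 4 had a positive log2 difference, and PER21 was at -0.30 ± 0.25. None of the 5 was called. PER34 was at 0.63 ± 0.25 and PER50 at 1.00 ± 0.33 on the log2 scale (edgeR adjusted p = 1 and 0.64). Without pif4 library b the log2 difference was 2.43 for PER37, 1.93 for PER49, 2.93 for PER52, 5.66 for PER33 and 0.38 for PER50, and none was called. The median log2 difference of the members was 0.01, beside 0.00 for all genes.

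**Figure D4:**
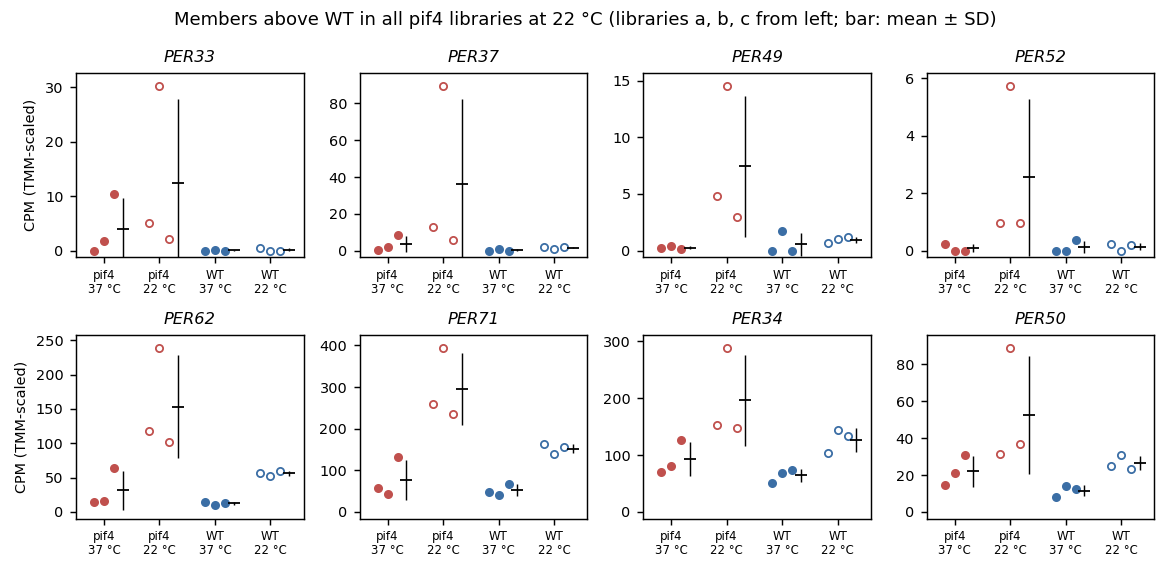
Level of 8 members in each library (y axis, TMM-scaled CPM; points are libraries a, b and c from left to right, filled at 37 °C and open at 22 °C; bars are mean ± SD, n = 3). At 22 °C the 3 pif4 libraries are above the 3 WT libraries in all 8 genes, and pif4 library b is the highest; none of the 8 differences was called.

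At 37 °C no member was called between the genotypes either, while 10 genes of all tested were (0.0533%). Unadjusted p-values were under 0.05 for 10 of the 33, and for 1988 of all 18774 genes. All 3 pif4 libraries were above all 3 WT libraries in 7 members (PER16, PER35, PER50, PER57, PER62, PER70 and PER72), against 7.48% of all genes, and below in 1, PER30, against 4.23%. PER16 came nearest to a call, at 4.32, 3.204 and 2.03 CPM in pif4 against 1.70, 0 and 0.357 CPM in WT (2.74 ± 0.62, edgeR adjusted p = 0.10). It was called with DESeq2 (adjusted p = 0.012), with no filter on low counts (0.016) and without WT library a of 37 °C (4.04, adjusted p = 0.043). PER64 was at 0.83 ± 0.23 (edgeR adjusted p = 0.17) and PER57 at 0.76 ± 0.24 (adjusted p = 0.26). PER33 had 0, 1.74 and 10.5 CPM in pif4, against 0, 0.174 and 0 CPM in WT, with overlap. The median log2 difference of the members was 0.15, beside 0.04 for all genes.

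The test of whether heat acted differently in pif4 and WT called no gene of all tested (0%), with 1025 genes at an unadjusted p under 0.05, and DESeq2 called 5. Of the members, 6 had an unadjusted p under 0.05. PER16 had a difference of 2.50 ± 0.71, that is a smaller fall in pif4 than in WT, and PER64 one of 0.89 ± 0.29 (edgeR adjusted p = 0.72 and 0.77). PER57 had 0.76 ± 0.33 and PER27 0.70 ± 0.34 (adjusted p = 0.87 and 0.91). The other 2 of the 6, PER49 and PER52, had the negative differences given above. These are differences of log2 fold changes, pif4 minus WT, and none passed the threshold.

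The other class III peroxidases and the companion genes of wall oxidation and lignin were read from the same fit. For the counts that follow, the shares of all genes tested were 24.1% lower and 25.6% higher in pif4. In WT they were 26.0% lower and 25.5% higher. Of the other 36 peroxidases 17 were tested, and 8 were lower and 2 higher in pif4, 9 lower and 1 higher in WT. AT1G14540 (PER4) had 2.40, 3.74 and 19.1 CPM in pif4 and 0, 0.349 and 0 CPM in WT at 37 °C, and 33.0, 99.5 and 22.2 CPM in pif4 and 7.35, 8.44 and 7.41 CPM in WT at 22 °C; it was not called between genotypes at 22 °C (2.73 ± 0.71, edgeR adjusted p = 0.41). NADPH oxidases make the superoxide from which peroxidases draw hydrogen peroxide, and of 7 tested, 5 were lower and 1 higher in pif4, 4 lower and 1 higher in WT. RBOHB had 1 read in pif4 at 37 °C and 134 at 22 °C. In WT it had 0 reads at 37 °C against 203 at 22 °C, which is at least 20.1-fold lower, counted against a floor of 3 reads over the group. RBOHE was higher, at 1.72 ± 0.44 in pif4 and 1.26 ± 0.44 in WT (edgeR adjusted p = 0.0028 and 0.021); the WT call was lost without library b or c of 22 °C or b of 37 °C, and both calls with total counts as library sizes. Of 13 laccases, the other oxidases that polymerise lignin, 6 were lower in pif4 and 8 in WT, with none higher. Of 16 genes of monolignol synthesis, 9 were lower and 4 higher in each genotype: PAL1, which opens the pathway, was at -2.94 ± 0.19 in pif4 and -3.08 ± 0.20 in WT, with edgeR adjusted p of 7.4e-11 and 6.6e-11. The 2 dehydrogenases of the last step went opposite ways: CAD5 was at 1.92 ± 0.17 in pif4 and 1.75 ± 0.17 in WT (edgeR adjusted p = 7.6e-09 and 2.8e-08), and CAD4 at -2.34 ± 0.23 in pif4 and -2.03 ± 0.23 in WT (adjusted p = 5.0e-08 and 4.2e-07). Of 7 extensins and proline-rich wall proteins, 4 were lower in each genotype and none higher. None of the genes in these lists was called between genotypes at either temperature.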

How the data were processed

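PolyA RNA of whole seedlings was sequenced. The values used are read counts without normalization, as deposited and per the file headers, and the genome build was TAIR10, per the submitters' processing notes. The aligner, counting tool, annotation and strand setting were not given in the sources used here. The table has 33602 rows, of which 1274 have no value. Columns of WT and pif4 carry a genotype and a letter that no label ties to a replicate number. In all, 36 per-sample columns were not used: 12 length-corrected columns of the libraries used, and 24 columns of 12 libraries whose line codes match no label, so the planned PIF4-L comparisons were not run. A planned search of promoter letters was not run either.

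Counts of all 12 libraries were fitted together in R 4.3.3 by edgeR 4.0.16 (genes kept with filterByExpr at a minimum count of 10, TMM, robust quasi-likelihood F test, two-sided, Benjamini-Hochberg over 18774 genes). The biological coefficient of variation was 23.4%. Standard errors were derived from each log2 fold change and its F statistic. The fit was tested on simulated data in which a small part of the genes changed. Those data held no broad shift between temperatures, so they do not bear on the scaling of the heat comparisons. Coding lengths, symbols and protein identities (global alignment, BLOSUM62) came from RefSeq's TAIR10.1 annotation, in which all 37 members were found. Ratios of low counts carry exact 95% intervals for counting error only. Alternatives were other scalings, DESeq2 1.42.0, no filter on low counts, a replicate block, fits of 2 groups and leaving out libraries.

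The members, lists and the naming rule were chosen with earlier results of these data known. The rule accounts for every member, gives full values for the 4 largest rises, the 4 largest falls and the 4 highest levels in each heat comparison and for close copies, and names up to 2 genes per direction of other lists. PER1 is the symbol that the deposited table gives to both AT1G05240 and AT1G05250, the second of which is called PER2 here.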

Additional observations from a re-analysis of the deposited data

How the results depend on the processing

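Among the members called in the heat comparisons, 14 of 20 in pif4 and 14 of 19 in WT kept their call and direction under each alternative run. Those that lost a call under at least 1 alternative were PER37, PER50, PER51, PER52, PER62 and PER73 in pif4, and PER50, PER51, PER62, PER71 and PER73 in WT, and none of the called members reversed. With total counts as library sizes, members called lower were 30 in pif4 and 27 in WT, where 62.01% of all genes were called lower in each genotype, and members called higher were 0 in pif4 and 0 in WT. Without the 4 libraries lettered a, chosen after seeing the data, 2 members were called higher in pif4. Leaving out 1 library gave 16 to 21 members lower in pif4 and 17 to 18 in WT. With a replicate block for the letter, 17 members were called lower in pif4 and 18 in WT, and 1 higher in each. The block ended the calls of PER37 in pif4 (adjusted p = 0.099) and of PER73 in pif4 and WT (0.081 and 0.094), and called PER70 in WT (0.04991). The letters were not taken to pair the libraries, as no label says what same-lettered libraries share. Correlations of same-lettered deviations ran from -0.08 to 0.26. Library a had the fewest reads in each group. With the block, genes called for heat went from 9336 to 9794 in pif4 and from 9672 to 10087 in WT. The cause of this was not tested.

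Between genotypes at 37 °C, where 10 genes were called, DESeq2 called 145, no filter on low counts 76, the replicate block 55 and the fit without the libraries lettered a 3, and leaving out 1 library gave 2 to 18. Members called higher there were 1 with DESeq2, 1 with no filter and 0 to 1 on leaving out a library. At 22 °C, where 16 genes were called, total counts gave 8, DESeq2 91, no filter 52, the replicate block 27, the fit of the 2 groups alone 6 and the fit without the libraries lettered a 2, and leaving out 1 library gave 3 to 40. For the difference of the heat effects, DESeq2 called 5 genes, no filter 2, the replicate block 0 and leaving out 1 library 0 to 1.

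Calls were also gained, beside those under total counts: PER7 in WT (without library a of 37 °C 0.029, 2 groups alone 0.032), PER17 in pif4 (DESeq2 0.04958), PER39 in WT (RLE size factors 0.044), PER70 in pif4 (2 groups alone 0.046), PER44 in pif4 without the libraries lettered a (0.0079) and PER21 higher in pif4 without the libraries lettered a (0.0099).

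Signs turned in members that were not called, and in PER29, PER47 and C3H1, which are not members. With total counts, the log2 heat change was -0.79 for PER3, -0.997 for PER12, -0.65 for PER21, -0.86 for PER66, -0.39 for PER47 and -0.29 for PER29 in pif4. In WT it was -0.97 for PER3, -0.80 for PER12, -0.35 for PER33, -0.63 for PER52, -0.74 for PER53, -0.999 for PER66, -0.086 for PER29 and -0.0055 for C3H1. PER29 in both genotypes, PER47 in pif4 and C3H1 in WT were called higher with TMM. Size factors of the RLE kind gave -0.073 for PER12 in pif4, and -0.0037 for PER3 and -0.056 for PER66 in WT. DESeq2 gave -0.071 for PER12 in pif4, and -0.0025 for PER3, -0.58 for PER33 and -0.052 for PER66 in WT, and no filter gave -0.012 for PER66 in WT. The replicate block gave -0.022 for PER53 in WT. Without the libraries lettered a, PER12 in pif4 was at -0.0077, and PER21 and PER53 in WT were at 0.012 and -0.28.

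Leaving out 1 library gave these ranges in pif4: PER10 -0.57 to 0.23, PER12 -0.052 to 0.12, PER33 -3.61 to 0.24, PER35 -1.39 to 0.0018 and PER53 -0.79 to 0.50. In WT they were -0.14 to 0.16 for PER3, -0.57 to 0.17 for PER10, -0.31 to 0.20 for PER21, -2.17 to 2.67 for PER33, -6.22 to 0.12 for PER49, -3.21 to 1.22 for PER52, -0.048 to 0.82 for PER53 and -0.19 to 0.15 for PER66. The genotype difference of PER71 at 37 °C ran from -0.088 to 0.84, and the difference of the heat effects of PER49 from -4.78 to 1.57. The causes were not tested. Few or no reads in some groups stood behind the values of PER2, PER11, PER33, PER37, PER49, PER52 and PER54.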
